A study of Homo sapiens with 4 samples.

Results

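The 8 E2F transcription factor genes E2F1 to E2F8 and the retinoblastoma family genes RB1 and RBL1 were examined in K562 cells, an established line from human chronic myeloid leukemia, transfected with RUNX1::ERG or with the empty vector. The 10 genes were taken by symbol from the 25702 genes counted, and all 10 were among the 15394 genes with enough counts to be tested. Whole transcriptome sequencing was performed on poly(A)-enriched RNA from 2 biological replicates of each group, which carried the LeGO-iG2 plasmid with the RUNX1::ERG coding sequence or the same plasmid without an insert. Both groups received no other treatment, and the plasmid also expresses green fluorescent protein in both. The cells were transiently transfected, and the sources used here do not say whether transfected cells were sorted before RNA extraction.

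E2F proteins bind the promoters of genes for DNA replication and mitosis. E2F1, E2F2 and E2F3 are the activators and drive entry into S phase, whereas E2F4 and E2F5 repress the same genes in resting cells together with the pocket proteins. RB1, RBL1 and RBL2 are those pocket proteins, and phosphorylation by cyclin-dependent kinases releases E2F from them. E2F6 represses without a pocket protein, and E2F7 and E2F8 are atypical repressors that bind DNA without a DP partner. Several of these genes are themselves E2F targets, so the family forms feedback loops, and in blood cells they set the balance between division and maturation.

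The letters of an E2F site stood just before the start of 4 members. In the 250 bases before the RefSeq transcript start, E2F1, E2F2, E2F3 and RBL1 held an E2F site among the 8 members with a window in the RefSeq promoter table (GRCh38.p14), searched on both strands as TTTCCCGC, TTTGGCGC, TTTCGCGC or TTTGCCGC. Of all 35116 windows in that table, 2.79% held one. The 8 members had 9 windows, and the site of E2F3 lay in the first of its windows only. E2F1 and RBL1 held 2 sites each. The stretches that carry the sites are shown because they place these members among the possible targets of their own family. They are written 5′ to 3′ on the gene's strand with the E2F site in capitals (as its reverse complement where it lies on the other strand), and were placed on GRCh37 by an exact match.
E2F1, chr20:32274192-32274251, minus strand: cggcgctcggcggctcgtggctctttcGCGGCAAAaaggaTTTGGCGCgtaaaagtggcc
E2F2, chr1:23857726-23857785, minus strand: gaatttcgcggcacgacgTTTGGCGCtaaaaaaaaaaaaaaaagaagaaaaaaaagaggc
E2F3, chr6:20402040-20402099, plus strand: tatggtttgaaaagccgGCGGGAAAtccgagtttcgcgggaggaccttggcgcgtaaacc
RBL1, chr20:35724401-35724460, minus strand: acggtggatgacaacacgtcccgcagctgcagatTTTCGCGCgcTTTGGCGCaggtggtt

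RUNX1::ERG retains the Runt and Ets DNA-binding domains, so the letters of their sites were searched as well. The ETS letters CCGGAA were found in the windows of E2F2, E2F7 and RBL1, against 14.5% of all windows, and are in capitals in the stretches that follow.
E2F2, chr1:23857841-23857880, minus strand: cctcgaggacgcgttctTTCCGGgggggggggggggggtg
E2F7, chr12:77459525-77459564, minus strand: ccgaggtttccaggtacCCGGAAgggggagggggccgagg
RBL1, chr20:35724507-35724546, minus strand: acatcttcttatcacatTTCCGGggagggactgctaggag
The Runt letters TGTGGT or TGCGGT, held by 16.3% of all windows, were in none of the members' windows. The CHR element TTTGAA, through which MuvB binds, was in the first of the E2F3 windows only, against 13.3% of all windows. A match of letters is a description of the sequence and not a bound site. The window listed for RB1 begins at chr13:49050336, inside the gene and away from its annotated start at 48877880, and that of RBL1 lies within an exon of an antisense long noncoding RNA. The windows of E2F5 and E2F8 were not analysed here.

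The libraries held 59695387 to 82352144 counts, and the members had from 425 counts (E2F5) to 15239 counts (E2F4) in a library. Even numbers made up 66.7% to 68.9% of the counts from 1 to 10, as can happen when both mates of a pair are counted. Whether they were was not tested, and if so, independent fragments are fewer than the counts. The labels were checked by ERG, at 4 counts in either control library against 80443 in RUNX1::ERG replicate 1 and 27218 in replicate 2, and by RUNX1, with a log2 fold change of 3.22. Plasmid reads were counted together with those of the endogenous genes. The K562 markers HBE1, HBG2 and GATA1, for embryonic and fetal globins and an erythroid transcription factor, were at 6394 to 8412, 2503 to 3123 and 256 to 302 normalized CPM, which are read counts relative to the library size after TMM scaling. HBZ, KLF1 and TFRC were lower on average with RUNX1::ERG, at log2 fold changes of -0.595, -0.12 and -0.57 that did not pass the threshold (adjusted p = 0.05, 0.789 and 0.243 from edgeR). HBZ lay at the threshold and its groups did not overlap, whereas those of KLF1 and TFRC did. Of the markers of other cell types, the B cell list summed to 1.17 to 2.06 normalized CPM with MS4A1 at 0 in every library. The monocyte list summed to 0.652 to 0.946 normalized CPM with the empty vector and 2.23 to 4.10 with RUNX1::ERG. Most of this rise was CD14, while FCGR3A went the other way, from 42 and 10 counts to 8 and 3. The fibroblast list summed to 6.13 to 6.33 and 22.0 to 24.7, a rise carried by COL1A1, while COL3A1 had at most 12 counts in a library. The T cell list summed to 34.6 to 36.98 and 25.2 to 27.9, most of it CD3D. CD3D had a log2 fold change of -0.61 and CD3G 1.12 (adjusted p = 0.0899 and 0.0642 from edgeR). CD14, COL1A1 and TAL1 passed the threshold, with log2 fold changes of 3.24, 2.42 and 0.68. The part of these markers in the results was not tested, and in bulk RNA fewer cells of a type cannot be told apart from less RNA per cell.

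No E2F or RB family gene changed past the threshold. Tested with edgeR (quasi-likelihood, Benjamini-Hochberg adjustment over all genes), 0 of the 10 members passed 0.05, against 4.79% of the genes tested (3.64% higher and 1.15% lower with RUNX1::ERG). At an unadjusted p under 0.05 there was 1 member, RB1, against 18% of all genes tested. DESeq2 called 0 members, with 2 at an unadjusted p under 0.05, and limma voom called 0, against 1194 and 688 genes in all. The share of all genes under that unadjusted p was not computed for DESeq2, so its 2 members have no share to be set against. The log2 fold changes ran from -0.60 for E2F5 to 0.46 for RB1, with 6 members above 0 and 4 below. Their median was 0.14, against -0.002 over all genes tested, and the median of their absolute values was 0.19 against 0.24. Both RUNX1::ERG libraries lay above both empty vector libraries for 2 members (E2F7 and RB1), against 25.1% of all genes tested, and below them for 1 member (E2F5), against 22.1%. For 9 of the 10 members the 95% interval of the log2 fold change lay between -1 and 1, so a doubling or a fall of that size was outside the interval. For E2F5 it reached -1.23.

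**Figure D1:**
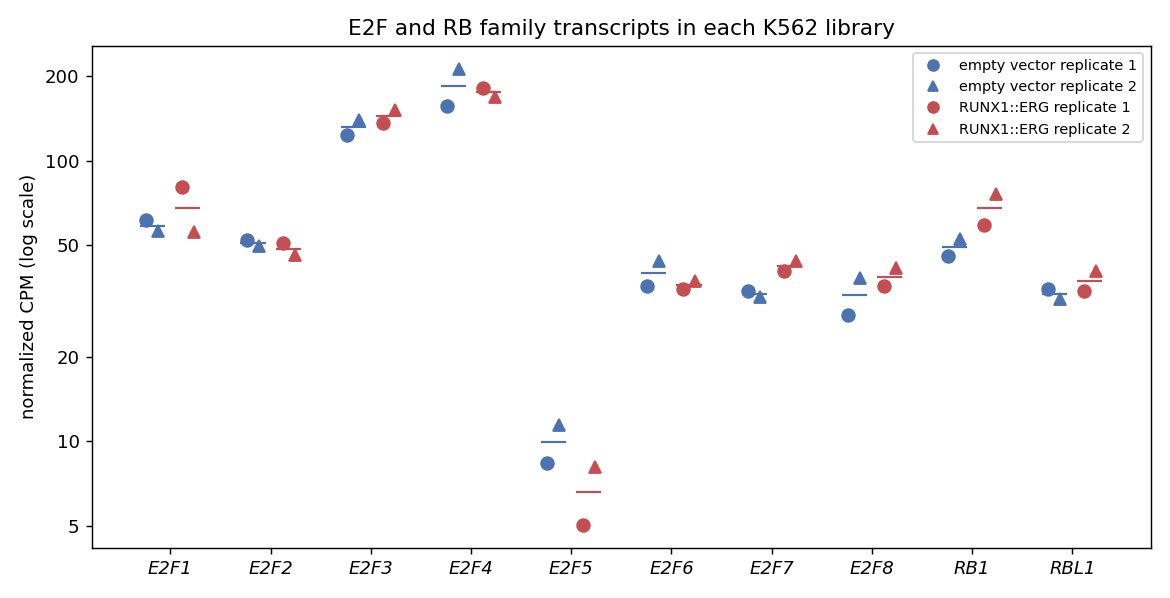
Normalized CPM (log axis) of the 10 genes in each of the 4 libraries, with blue for the empty vector, red for RUNX1::ERG, circles for replicate 1, triangles for replicate 2 and horizontal lines for the group means. E2F4 and E2F3 are the most counted and E2F5 the least, and the colors separate for E2F5, E2F7 and RB1 alone.

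The activator genes did not differ past the threshold, and the groups overlapped for all 3. E2F1 (NCBI gene 1869, GRCh37 chr20:32263283-32274191), the activator most closely tied to both S phase entry and apoptosis, was at 61.3 and 56.0 normalized CPM in empty vector replicates 1 and 2 and at 80.5 and 55.6 in RUNX1::ERG replicates 1 and 2. RUNX1::ERG replicate 1, the library with the most ERG counts, stood above the other 3, and the groups overlapped. The log2 fold change was 0.22 (standard error 0.20, 95% interval -0.22 to 0.65, adjusted p = 0.639, edgeR). It was -0.08 without RUNX1::ERG replicate 1 and 0.44 without replicate 2.

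E2F2 (chr1:23832930-23857725), which acts beside E2F1 in dividing blood progenitors, varied least of the activators. It was at 52.2 and 49.6 normalized CPM in the empty vector libraries and at 51.1 and 46.1 with RUNX1::ERG, and the groups overlapped. The log2 fold change was -0.07 with a 95% interval from -0.43 to 0.30. E2F3 (chr6:20402110-20493945), which has a second promoter that makes a shorter protein, was at 124 and 140 normalized CPM in the empty vector libraries and at 136 and 152 with RUNX1::ERG. The groups overlapped again, with a log2 fold change of 0.13 (95% interval -0.22 to 0.48). The counts are summed over the gene and do not separate the products of its promoters.

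E2F4 (chr16:67226058-67232821), the main E2F of resting cells, differed more between the empty vector libraries than between the groups. It was at 157 and 212 normalized CPM in empty vector replicates 1 and 2 and at 181 and 169 in RUNX1::ERG replicates 1 and 2. Its log2 fold change was -0.08 (95% interval -0.47 to 0.31), and it was 0.15 without empty vector replicate 2.

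E2F5 (chr8:86089389-86129387), the other pocket-protein-bound repressor, was the least expressed member. It was at 8.39 and 11.5 normalized CPM in the empty vector libraries and at 5.04 and 8.11 with RUNX1::ERG. The groups did not overlap, but RUNX1::ERG replicate 2 differed from empty vector replicate 1 by less than the replicates of either group differed from each other. The log2 fold change was -0.60 (standard error 0.29, 95% interval -1.23 to 0.04, adjusted p = 0.314 from edgeR). It was -0.99 without RUNX1::ERG replicate 2 and -0.29 when replicate 1 was left out instead, and the adjusted p ran from 0.0573 to 0.84 over the alternatives. Exons of RBIS on the opposite strand overlap those of E2F5, and the strand setting of the counting is not given in the sources used here, so reads of the pair may not be told apart. RBIS was at 32.8 ± 0.63 normalized CPM with the empty vector and 26.3 ± 0.64 with RUNX1::ERG (SD, n = 2). Exons of long noncoding RNAs on the opposite strand also overlap those of E2F5, E2F8 and RBL1, and the same limit applies. These RNAs were not found by name among the genes counted.

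E2F6 (chr2:11584501-11606303), which works with a Polycomb complex, was at 35.7 and 43.96 normalized CPM in the empty vector libraries and at 34.9 and 37.3 with RUNX1::ERG. The groups overlapped, with a log2 fold change of -0.14 (95% interval -0.54 to 0.26) that became 0.01 without empty vector replicate 2.

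The atypical repressors were higher on average with RUNX1::ERG, without passing the threshold. E2F7 (chr12:77415028-77459349) was at 34.3 and 32.6 normalized CPM in the empty vector libraries and at 40.5 and 43.9 with RUNX1::ERG, so that the groups did not overlap. Its log2 fold change was 0.33 (standard error 0.17, 95% interval -0.04 to 0.71, adjusted p = 0.343 from edgeR), and the values with a library left out stayed between 0.26 and 0.39. E2F8 (chr11:19245610-19263167), its closest relative, was at 28.1 and 38.3 normalized CPM in the empty vector libraries and at 35.6 and 41.4 with RUNX1::ERG. Empty vector replicate 1 was the low library, and the log2 fold change of 0.22 (95% interval -0.23 to 0.66) became 0.01 without it. E2F7 also varied less within groups, its replicates differing by 0.07 and 0.11 on the log2 scale against 0.45 and 0.22 for E2F8.

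Among the pocket protein genes, RB1 had the largest positive difference of the family. RB1 (NCBI gene 5925, chr13:48877880-49173572), the retinoblastoma tumor suppressor, was at 45.7 and 52.4 normalized CPM in the empty vector libraries and at 58.9 and 76.3 with RUNX1::ERG. Both RUNX1::ERG libraries were above both empty vector libraries, and replicate 2, with the fewer ERG counts, was the higher of them. The log2 fold change was 0.46 (standard error 0.18, 95% interval 0.06 to 0.86, unadjusted p = 0.0277 and adjusted p = 0.205 from edgeR). Over the alternatives it ran from 0.25, without RUNX1::ERG replicate 2, to 0.64, without RUNX1::ERG replicate 1, with adjusted p-values from 0.0517 to 0.766. LPAR6, which lies within RB1 on the opposite strand, had at most 27 counts in a library, against at least 2750 for RB1. RCBTB2, also within RB1 on the opposite strand, had 98 to 265 counts and was higher in both RUNX1::ERG libraries (log2 fold change 0.85, adjusted p = 0.18 from edgeR). The exons of neither overlap those of RB1.

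RBL1 (chr20:35624752-35724400), which encodes p107 and is itself an E2F target, was at 34.9 and 32.1 normalized CPM in the empty vector libraries and at 34.4 and 40.4 with RUNX1::ERG. The groups overlapped, with a log2 fold change of 0.16 (95% interval -0.24 to 0.55). RBL2, which encodes p130, the pocket protein of resting cells, is the remaining one and was not among the 10 genes. It was at 54.0 and 44.8 normalized CPM in the empty vector libraries and at 54.1 and 60.1 with RUNX1::ERG, a log2 fold change of 0.21 (adjusted p = 0.595 from edgeR).

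**Figure D2:**
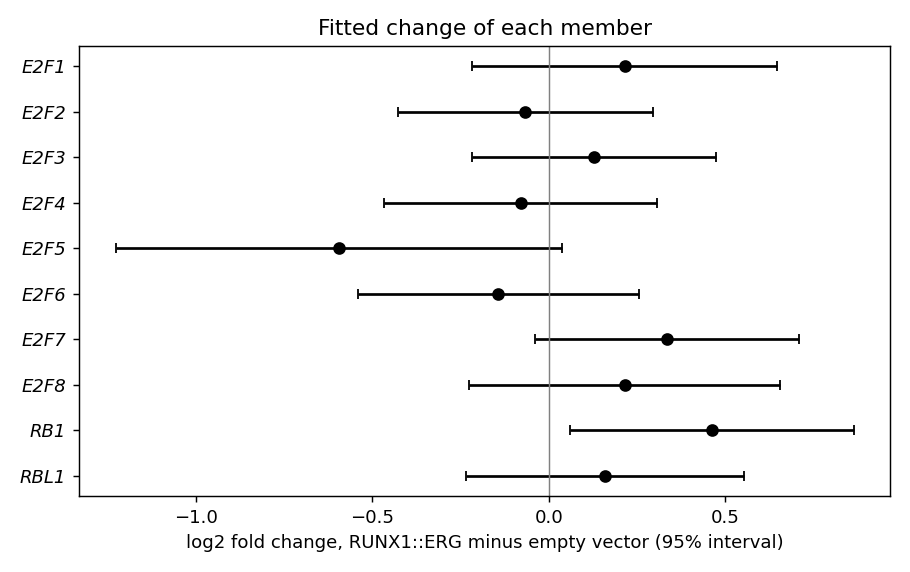
Fitted log2 fold change (RUNX1::ERG minus empty vector) of each gene as a point, with its 95% interval from edgeR's quasi-likelihood fit as a bar and 0 as a vertical line. The interval of RB1 alone lies on one side of 0, and that of E2F5 is the widest.

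Levels were set against each other only per kilobase of annotated exon, as normalized CPM per kilobase. E2F4 was the highest in every library, at 49.99 ± 6.61 (SD over the 4 libraries), and E2F5 was the lowest in every library, at 1.38 ± 0.44. E2F3 and E2F1 followed E2F4, at 26.6 ± 2.2 and 23.5 ± 4.4, and their ranges overlapped. E2F6, E2F2, RB1 and E2F8 stood next, at 9.332 ± 1.014, 9.11 ± 0.49, 9.06 ± 2.04 and 8.67 ± 1.38, and did not differ beyond their spread. E2F7 and RBL1, at 6.02 ± 0.84 and 5.95 ± 0.59, did not differ from each other beyond their spread either, and the range of E2F7 met that of E2F8. With the length of the longest transcript in place of all exons, E2F4 stayed first and RB1 moved up to the fourth place, at 12.2 ± 2.8.

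E2F4, E2F3 and E2F1 made up most of the E2F transcripts in every library. E2F4 gave 38.5% ± 3.9 of the summed counts per kilobase of E2F1 to E2F8 with the empty vector and 35.6% ± 0.33 with RUNX1::ERG (SD, n = 2). The activators E2F1, E2F2 and E2F3 together gave 45.9% and 39.7% in the empty vector libraries and 46.7% and 43.9% in the RUNX1::ERG libraries, and the groups overlapped. The atypical E2F7 and E2F8 gave 10.02% and 10.1% with the empty vector and 10.7% and 12.8% with RUNX1::ERG. The shares of E2F4 and E2F5 together were 36.9% and 42.6% with the empty vector and 36.4% and 36.4% with RUNX1::ERG. E2F6 gave 7.18% and 7.56% with the empty vector and 6.11% and 6.90% with RUNX1::ERG. In the last 3 of these classes the groups did not overlap, but with 2 libraries against 2 the smallest two-sided p of an exact permutation test is 0.333. The shares of a library are parts of the same sum, so the classes are not independent. By level, the RUNX1::ERG libraries also lay apart from the controls for many genes, above for 25.1% of all tested and below for 22.1%.

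**Figure D3:**
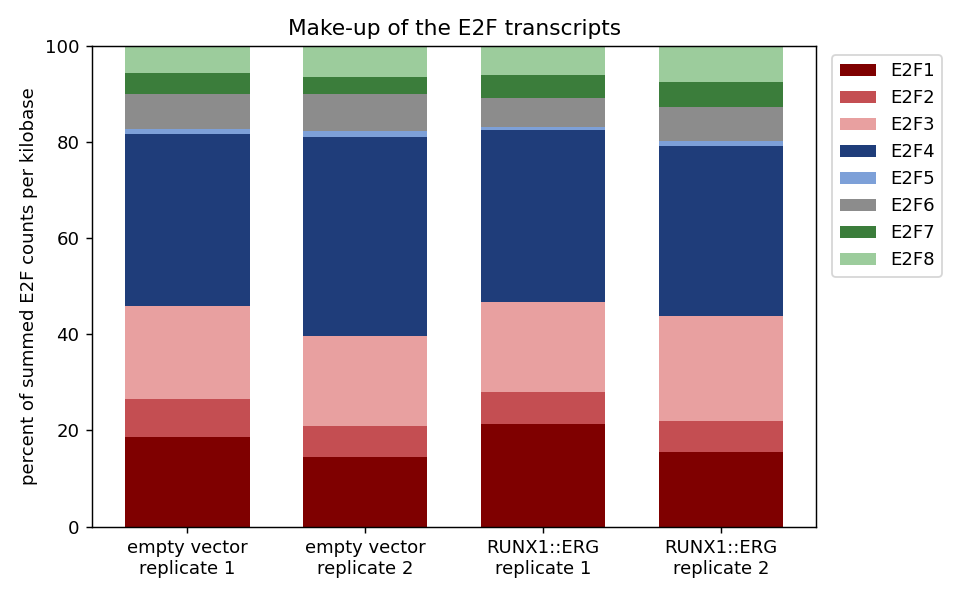
Percent of the summed E2F counts per kilobase of exon contributed by each E2F gene, as stacked bars, 1 bar per library. E2F4, E2F3 and E2F1 make up most of each bar, and E2F5 is the thinnest band in all 4.

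Upstream of the pocket proteins, 4 of the 13 tested genes for G1 cyclins, their kinases and the kinase inhibitors passed the threshold, 3 higher and 1 lower, against 3.64% higher and 1.15% lower of all genes tested. The list was chosen with earlier results of these data known, so its share beside that of all genes is a description only. CCND3, which encodes cyclin D3, rose from 339 and 379 to 787 and 678 normalized CPM, with a log2 fold change of 1.03 and an adjusted p of 0.00311 (edgeR). CDKN1A, which encodes the inhibitor p21, rose from 26.2 and 24.6 to 105.7 and 76.3 normalized CPM, a log2 fold change of 1.84. CDKN2D, which encodes the CDK4 and CDK6 inhibitor p19, rose from 6.14 and 4.54 to 16.7 and 14.0 normalized CPM, a log2 fold change of 1.52. The adjusted p from edgeR was 0.000486 for CDKN1A and 0.00602 for CDKN2D. These 3 passed the threshold under all 12 alternatives, and so a cyclin that activates CDK4 and CDK6 rose together with inhibitor genes.

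CCND2, which encodes cyclin D2, fell from 48.3 and 36.8 to 25.4 and 23.3 normalized CPM, a log2 fold change of -0.80 (adjusted p = 0.0408 from edgeR). It did not pass without empty vector replicate 1 (-0.60, adjusted p = 0.111), without RUNX1::ERG replicate 1 (-0.87, adjusted p = 0.127), without RUNX1::ERG replicate 2 (-0.76, adjusted p = 0.097) or with library totals as the scaling (-0.77, adjusted p = 0.0667), and its adjusted p ran from 0.000847 to 0.127 over the alternatives. CDKN2A and CDKN2B, the inhibitor genes of chromosome 9, were at 0 counts in every library, which allows up to 3 counts or 0.0364 to 0.0503 CPM. The other 9 tested genes of the list did not pass by edgeR, although CDKN1C, CDKN2C and CCNE2 had an unadjusted p under 0.05. DESeq2 called 5 genes of the list and limma voom 4, and edgeR called 5 without the filter on low counts and 6 with a replicate block. Over all genes these settings called 1194, 688, 1500 and 1733 in the same order, against 737 in the main fit. The median of the list was 0.04, against -0.002 over all genes tested, and it was 0.25 without empty vector replicate 1, 0.27 without empty vector replicate 2, while leaving out RUNX1::ERG replicates 1 and 2 in turn gave 0.005 and 0.10.

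The partners of the E2F proteins did not pass the threshold by edgeR, DESeq2 or limma voom, with 0 at an unadjusted p under 0.05 by edgeR. TFDP1 and TFDP2, whose DP proteins pair with E2F1 to E2F6, were at 184 ± 35 and 123 ± 5.3 normalized CPM in the empty vector libraries and at 182 ± 16 and 136 ± 10 with RUNX1::ERG (SD, n = 2). The log2 fold changes were -0.02 and 0.15, and that of TFDP1 became 0.03 with library totals as the scaling. TFDP3 was near the detection limit, at 0.149 and 0.111 normalized CPM. Of the 7 genes of the MuvB core and its partners MYBL2 and FOXM1, which turn the repressing DREAM complex into an activator of mitotic genes, 0 passed by any of these tools and 0 had an unadjusted p under 0.05, with log2 fold changes from -0.24 for LIN9 to 0.18 for FOXM1 and a median of -0.10. Among the 10 genes of the E2F6 complex 9 were tested and 0 passed by edgeR, with 1 at an unadjusted p under 0.05. This was PCGF6, at 31.7 and 29.8 normalized CPM in the empty vector libraries and at 20.4 and 19.99 with RUNX1::ERG (log2 fold change -0.605, adjusted p = 0.0868 from edgeR). DESeq2 called 1 gene of the complex, as did edgeR with a replicate block, against 1194 and 1733 genes in all. Of the 9 tested genes of the complex, 7 were below 0 and the median was -0.155. Of the genes acting on E2F levels, SKP2, CCNF and FZR1, which encode ubiquitin ligase subunits, had log2 fold changes of -0.335, 0.11 and 0.17. MIR17HG, the host of the miR-17 cluster whose products bind E2F transcripts, was at 67.6 and 59.5 normalized CPM in the empty vector libraries and at 45.0 and 38.0 with RUNX1::ERG (log2 fold change -0.61, adjusted p = 0.0722 from edgeR). It passed in 4 of 12 alternatives, with adjusted p-values from 0.0146 to 0.321, and the counts are of the host transcript and not of the mature microRNAs.

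Of the 54 G1/S genes that E2F binds, 0 passed the threshold by edgeR, DESeq2 or limma voom, with 6 at an unadjusted p under 0.05 by edgeR against the 18% of all genes. There were 3 past the threshold with a replicate block and 1 without empty vector replicate 2. Over all genes the replicate block called 1733. The list includes 5 of the members, and their own values enter its counts. It also shares CCNE1 and CCNE2 with the list of G1 cyclins, kinases and inhibitors, and MYBL2 with the MuvB list. Of these genes 40 had a negative and 14 a positive log2 fold change, with a median of -0.12 against -0.002 over all genes tested. With a library left out the median ran from -0.193, without empty vector replicate 1, to -0.035, without empty vector replicate 2, and it was -0.176 without RUNX1::ERG replicate 2. They ran from -0.50 for GINS2, a subunit of the replicative helicase, to 0.59 for CCNE2, which encodes cyclin E2. Both RUNX1::ERG libraries were below both empty vector libraries for 18 of the 54, against the 22.1% of all genes tested given above, and above them for 4, against 25.1%. The summed level of the list was 8172 and 9028 normalized CPM with the empty vector and 7650 and 7984 with RUNX1::ERG.

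The 25 mitotic genes repressed by DREAM had a median log2 fold change of -0.001, with 12 above and 13 below 0. With a library left out the median ran from -0.124, without RUNX1::ERG replicate 2, to 0.097, without RUNX1::ERG replicate 1. UBE2C, the highest at 0.515, had only 36 to 81 counts in a library. Of the 25 genes 0 passed the threshold by edgeR, DESeq2 or limma voom and 1 had an unadjusted p under 0.05 by edgeR. Of the 7 apoptotic genes that E2F1 can switch on, 0 passed by edgeR, with a median of 0.13. There were 3 at an unadjusted p under 0.05, against 18% of all genes tested. DESeq2 called 2 and edgeR without the filter on low counts called 3, against 1194 and 1500 over all genes. The median of the 7 genes was 0.405 without empty vector replicate 1, and leaving out RUNX1::ERG replicates 1 and 2 in turn gave 0.231 and 0.005. Genes past the threshold numbered 2 when either empty vector library was left out, 0 and 1 when RUNX1::ERG replicate 1 or 2 was, and 3 with a replicate block. TP73, which encodes a relative of p53, and APAF1, the scaffold of the apoptosome, had log2 fold changes of 0.95 and 0.67 (adjusted p = 0.125 and 0.0763 from edgeR). BBC3 and PMAIP1 of the same list were at -0.79 and -0.56 (adjusted p = 0.427 and 0.317 from edgeR), and the groups overlapped for BBC3. Of the 7 genes, 4 were above 0 and 3 below. Of the 6 germline genes kept silent with E2F6, 3 were tested and 0 passed by edgeR or DESeq2, with 1 at an unadjusted p under 0.05 by edgeR and 1 past the threshold without empty vector replicate 1. STAG3, a meiotic cohesin gene, was at 1.63 and 1.05 normalized CPM in the empty vector libraries and at 3.40 and 1.86 with RUNX1::ERG. Its log2 fold change was 0.98 (adjusted p = 0.232 from edgeR).

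**Figure D4:**
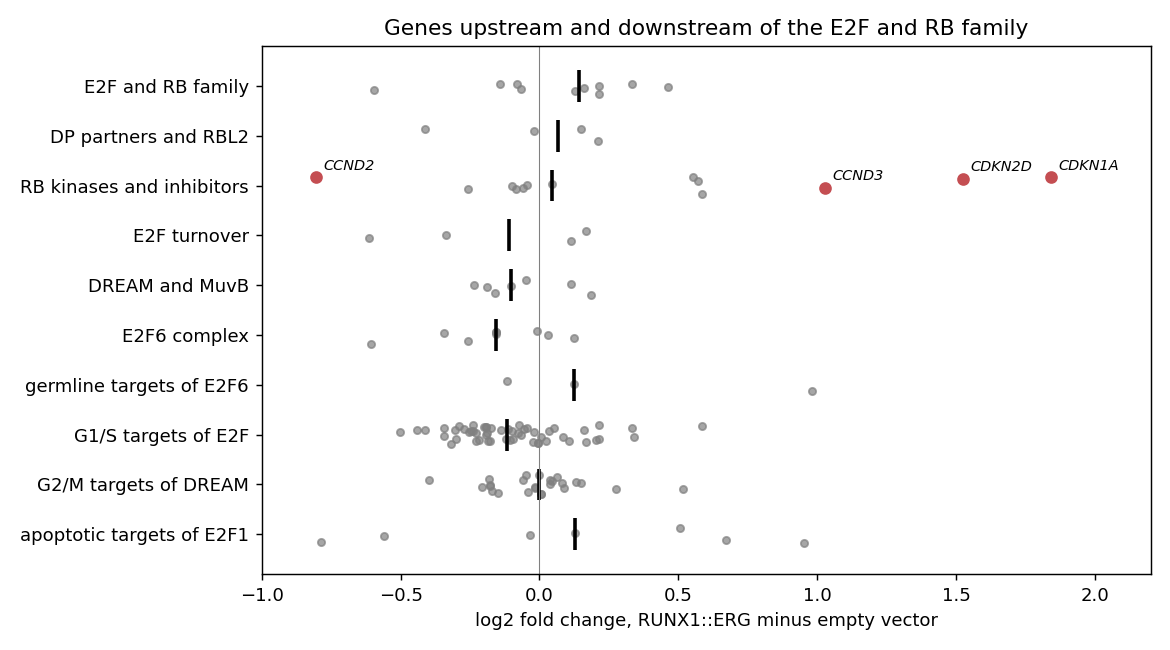
Log2 fold change (RUNX1::ERG minus empty vector) of each tested gene in the E2F and RB family and the lists around it, 1 row per list, with red points for genes with an adjusted p under 0.05, gray points for the others and a black bar for the median. The 4 named red points all lie in the row of RB kinases and inhibitors, and the median of the G1/S targets is at -0.12.

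The genes whose pattern over the 4 libraries lay nearest to RB1 and E2F5, the members with the smallest p, were sought among the genes with a mean of at least 10 CPM. The measure was the Euclidean distance of log2 normalized CPM centered on the gene's mean. SUCO, PJA2 and SMARCAL1 were nearest to RB1, at distances of 0.04, 0.05 and 0.05. MAGI1, NOC3L and MOB3B were nearest to E2F5, at 0.05, 0.09 and 0.14. With 4 libraries and 9138 genes compared, near neighbors are to be found for many genes, and this is a description only.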

How the data were processed

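Whole transcriptome sequencing of K562 cells comprised 4 libraries, 2 with the empty vector and 2 with RUNX1::ERG. The authors deposited raw read counts per gene, by NCBI gene number and without normalization. Their methods name paired-end reads and hg19, and the submitters' processing notes list HISAT2 2.2.1 and featureCounts 2.0.1. The annotation and strand setting are not given in the sources used here. Gene numbers were matched to RefSeq symbols of GRCh38.p14 (92.2% of 25702). Positions and exon lengths are those of GENCODE v44 on GRCh37, the build that hg19 names.

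Counts were analysed in R 4.3.3 with edgeR 4.0.16 (TMM scaling, its filter on low counts, the quasi-likelihood test, Benjamini-Hochberg adjustment over all 15394 genes, threshold 0.05). The code was also run on counts simulated with the same dispersion for every gene and no link between replicates. That run does not test how the method fares on the spread of these libraries. The standard error is the log2 fold change divided by the square root of F, and intervals are at 95%. The alternatives were DESeq2 1.42.0, limma 3.58.1 voom, other scalings and filters, halved counts, a replicate block and leaving out each library. The members and lists were chosen with earlier results of these data known. Named were all members, ERG and RUNX1 as checks, up to 5 genes past the threshold per list, all genes of lists of at most 4, and the 3 nearest patterns of the 2 members with the smallest p. Other genes, as the ends of a range, were named after their values were seen. Intervals and the limit of 3 counts cover counting error and the spread between these samples only. A marker of the K562 list is not reported here.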

Additional observations from a re-analysis of the deposited data

How the results depend on the processing

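Of the 10 members, 0 passed the threshold in each of the 12 alternatives, with adjusted p-values down to 0.0517. Of their 120 values, 117 stayed on the same side of 0 and of the threshold. The 3 that turned did so with a library left out, where E2F1 ran from -0.077 (without RUNX1::ERG replicate 1) to 0.443, E2F4 from -0.285 to 0.152 and E2F6 from -0.289 to 0.014 (the last 2 without empty vector replicate 2). The number of genes called in all, 737, was 1500 without a filter on low counts, 1194 with the DESeq2 Wald test and 1733 with the replicate block, and the cause was not tested. With a library left out, the lone sample of a group is assumed to vary like the others. The number was then 286 (without RUNX1::ERG replicate 1) to 1336 (without empty vector replicate 2), with 1227 without empty vector replicate 1.

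Libraries with the same number deviated together to a degree (r = 0.349 over genes), but no source ties a number to a batch. Whether libraries with the same number were prepared together is not known from the sources used here. Under the replicate block, RB1 was at 0.45 (adjusted p = 0.0517, range over its alternatives 0.0517 to 0.766) and E2F5 at -0.615 (adjusted p = 0.068, range 0.0573 to 0.84), and 0 members passed. Over all 15394 genes tested, the block raised the calls from 737 to 1733. Within the lists it raised them from 0 to 3 of the 54 G1/S targets and 3 of the 7 apoptotic targets. In the E2F6 complex the calls became 1 of the 9 tested genes, and among the genes acting on E2F levels 1 of 4. Those among the 13 tested RB kinases and inhibitors went from 4 to 6.

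TFDP1 turned with library totals (0.025) and ran from -0.206 to 0.190 with a library left out, as TFDP3 did from -1.404 to 0.172 and CCNF from -0.109 to 0.368. The median of the genes acting on E2F levels ran from -0.316 to 0.052, and that of the germline list was -0.008 without a filter and -0.010 with DESeq2. With the longest transcript as the length, the activator share was 37.1% and 39.59% in the empty vector and RUNX1::ERG groups, that of E2F4 and E2F5 was 46.09% and 42.69%, and the atypical share was 9.45% with the empty vector. With 2 libraries a group the standard errors of the members ran from 0.157 to 0.287, which limits the size of change that can be told from 0.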
